A study of Mus musculus with 6 samples.

Results

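The 10 markers described here are those by which spermatogonia are sorted or stained, and they were followed across hair follicle cells and germline stem cells of the mouse. They are Itga6, Itgb1, Cd9, Cdh1, Thy1, Epcam, Mcam, Cd44, Itga1 and Uchl1, 10 of the 19057 genes named on the bead array, and they were taken as every probe annotated to those symbols, 26 of 45281. All samples came from OG2 mice, which carry a Pou5f1-driven GFP transgene, Pou5f1 being a gene of pluripotent and germ cells. HFGSC were cells that the labels call germline stem cells and trace to hair follicles of dorsal skin, from mice aged 4 months, GSC were germline stem cells from the testis of mice aged 3 months, and HF were hair follicle cells from dorsal skin of mice aged 2 months. Each group had 2 arrays of total RNA. The labels give no culture conditions, no sort by which the cells were obtained and no sex, and do not say whether replicates came from separate animals, so the p-values cover no more than array-to-array spread, which may be technical. Age differs in every comparison and cannot be told apart from the labelled cell type between HFGSC and HF, from tissue between HFGSC and GSC, or from both between GSC and HF.

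Spermatogonial stem cells sit on the basement membrane of the seminiferous tubule and are found by antibody against adhesion molecules that face it or the neighbouring cells. None of these markers is limited to the germline. Integrin alpha 6 and beta 1, E-cadherin, EpCAM and CD9 are also proteins of epithelia, THY1 and CD44 of mesenchymal cells and lymphocytes, and MCAM of blood vessel walls. Uchl1 fits the name surface marker least, since UCHL1 is a cytosolic deubiquitinase that is stained inside fixed cells. Sorting reads protein at the cell surface, whereas the arrays read RNA of a whole sample, and in such bulk RNA a change in the number of cells of a type cannot be told apart from a change in RNA per cell.

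Values are log2 normalized intensities, on which background lies near 5. A probe was called detected on an array where its deposited detection p was under 0.05. Of the 26 probes, 9 were detected on all 6 arrays and 10 on none, and 13 were detected on both arrays of at least 1 group. Those 13 covered 8 of the 10 genes, each represented in the test by its brightest such probe. Epcam and Itga1 had no such probe and were not tested. Between 16094 and 19552 probes were detected per array, and precision is limited by having 2 arrays a group. The smallest two-sided p of an exact permutation test at that size is 0.333, so the tests below are limma fits across 10913 genes with Benjamini-Hochberg adjustment over all of them.

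The labelled cell types were checked against marker lists. The lowest detected signal was at least 6.39 log2 units on the HF arrays, and at most 5.99 on the others. Detection counts in HF, here and below, were thus taken at a higher floor. The part of that floor in lower HF counts was not tested. All 13 genes of undifferentiated spermatogonia were detected on both arrays of HFGSC and of GSC, against 2 of 13 in HF. Their summed linear intensity, which does not depend on detection, was 78659 and 51141 in HFGSC samples and 74898 and 65846 in GSC samples. On the HF arrays it was 1161 and 2278. Of 9 basal keratinocyte genes on the array 2 were detected on both arrays of HFGSC, 2 of GSC and 1 of HF. Krt5, Krt14, Krt15 and Trp63, which define basal and bulge keratinocytes, were not detected on any array, the HF arrays included. Of 7 suprabasal keratinocyte genes 3 were detected on both arrays of HFGSC, 3 of GSC and 2 of HF, and the same counts held for 7 genes of simple epithelium. Krt8, of simple epithelium, was detected on both GSC arrays at 6.15 and 6.01 log2 units. On the HF arrays it was not detected, at 6.1 and 6.06. Bulge stem cell genes were detected in 5, 4 and 4 of 7, melanocyte genes in 3, 3 and 0 of 7, Sertoli cell genes in 2, 1 and 1 of 6, Leydig and peritubular genes in 1, 3 and 1 of 7, and genes of differentiating spermatogonia in 2, 2 and 0 of 5, for HFGSC, GSC and HF in that order. HFGSC replicate 2 stood apart from HFGSC replicate 1 in fibroblast genes. The summed linear intensity of 11 such genes was 26573 and 63071 in HFGSC samples, 24064 and 21090 in GSC samples, and 46817 and 51276 on the HF arrays. All 9 detected fibroblast genes were brighter on HFGSC replicate 2, by a median of 1.71 log2 units, while 11 of the 13 spermatogonial genes were dimmer there, with a median gap of -0.70. Where a marker's HFGSC value moved with this array, the value without it stands beside it.

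The sort markers did not move as 1 group. In HFGSC, Thy1, Mcam and Uchl1 rose against HF, Itgb1 and Cd44 fell, and Itga6, Cd9 and Cdh1 did not pass, so that 5 of 8 tested markers were called, where 26.5% of all genes were. Those 3 higher and 2 lower markers stand beside 17.2% of all genes called higher and 9.37% called lower. GSC showed the same calls, and Cdh1 rose in addition, so that 6 of 8 markers were called, where 32.1% of all genes were. Its 4 higher and 2 lower markers stand beside 19.5% of all genes called higher and 12.6% called lower. Both comparisons share the HF arrays and are not independent of each other. Thy1 was not detected in HF and entered the test through HFGSC and GSC, so a call of lower was hardly open to it. The same limit holds for each gene below whose fold over HF is given as a lower bound. Between HFGSC and GSC none of the 8 passed in limma, where 0.44% of all genes were called, 0.174% higher and 0.266% lower. An unadjusted p under 0.05 was found for 1 of the 8 markers and for 803 of the 10913 genes. The median log2 difference over the 8 tested markers was 0.34 in HFGSC against HF, 0.96 in GSC against HF and -0.03 in HFGSC against GSC, beside 0.05, 0.07 and -0.01 over all tested genes. The arrays of HFGSC and HF did not overlap for 6 of the 8 markers, those of GSC and HF for 7, and those of HFGSC and GSC for 1. Over all tested genes 65% did not overlap between HFGSC and HF, 67.5% between GSC and HF, and 32.3% between HFGSC and GSC.

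**Figure D1:**
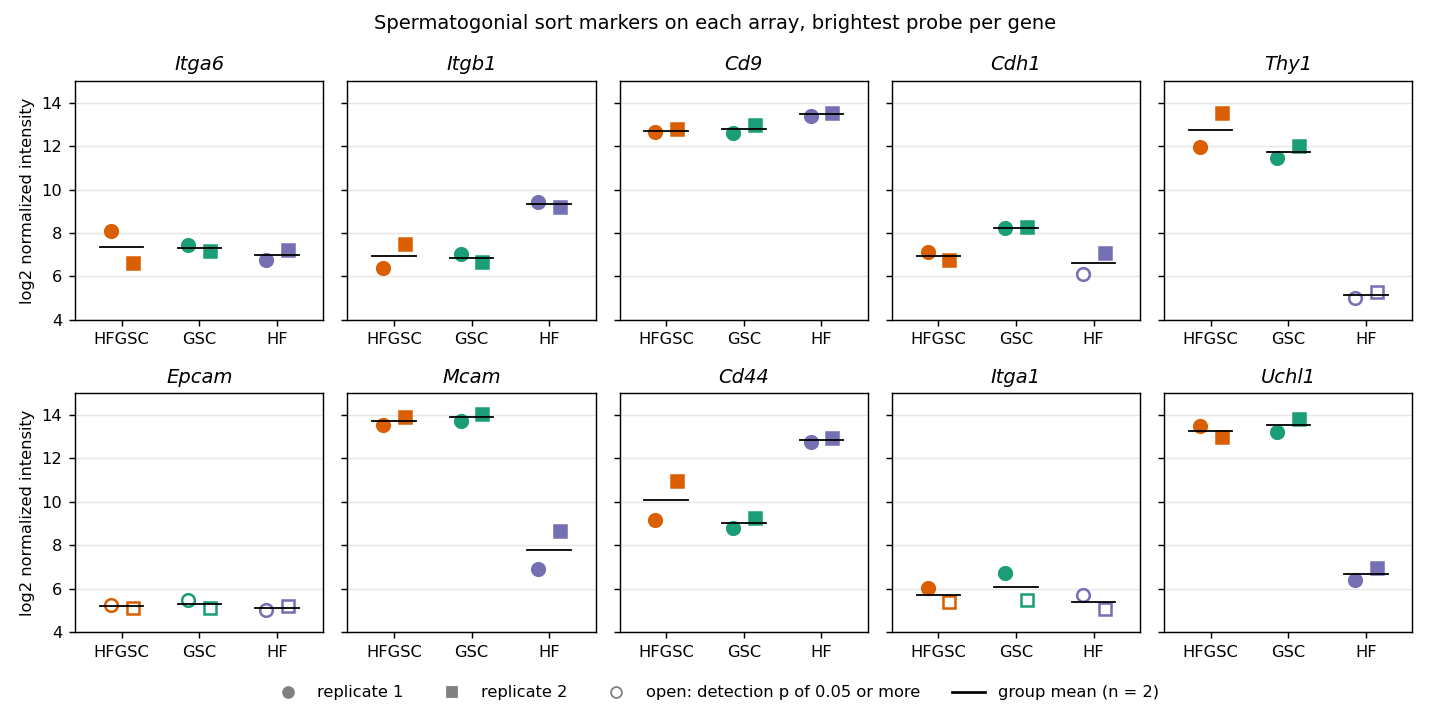
Log2 normalized intensity of the brightest probe of each of the 10 markers on the 6 arrays, in HFGSC, GSC and HF, with circles for replicate 1, squares for replicate 2, lines for group means (n = 2) and open symbols where detection p was 0.05 or more. Thy1, Mcam and Uchl1 are high in HFGSC and GSC, Itgb1 and Cd44 are high in HF, and Epcam is at background on every array.

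Among the tested markers, the profile over the 6 arrays, after each gene was centred on its own mean, was closest for Mcam and Uchl1, at a root mean square distance of 0.54 log2 units, and next closest for Cd44 and Itgb1, at 0.65. Thy1 lay 0.82 from Uchl1 and 0.88 from Mcam. The distances of Thy1 rest on background values in HF, where it was not detected. The promoter windows of the 2 closest pairs are shown because these genes moved together, 250 bases before to 50 after the start of transcription, 5′ to 3′, from RefSeq on GRCm38.p6, with every GC box in capitals. A GC box is read here as GGGCGG or, on the other strand, CCGCCC, with overlapping matches counted. The table used held windows for 7 of the 10 markers.
Mcam, chr9:44134408-44134707, plus strand: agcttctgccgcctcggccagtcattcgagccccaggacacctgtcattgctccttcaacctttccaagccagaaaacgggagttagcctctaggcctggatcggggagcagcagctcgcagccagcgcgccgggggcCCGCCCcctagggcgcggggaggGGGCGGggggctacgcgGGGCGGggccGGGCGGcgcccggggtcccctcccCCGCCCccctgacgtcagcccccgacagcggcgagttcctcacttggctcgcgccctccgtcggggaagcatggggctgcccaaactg
Uchl1, chr5:66675871-66676170, plus strand: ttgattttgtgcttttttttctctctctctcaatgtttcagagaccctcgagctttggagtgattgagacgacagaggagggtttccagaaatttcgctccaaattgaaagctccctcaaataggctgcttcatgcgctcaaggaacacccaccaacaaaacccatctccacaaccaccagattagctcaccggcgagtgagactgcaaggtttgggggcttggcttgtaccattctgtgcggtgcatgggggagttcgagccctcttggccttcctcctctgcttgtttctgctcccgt
Cd44, chr2:102901616-102901915, minus strand: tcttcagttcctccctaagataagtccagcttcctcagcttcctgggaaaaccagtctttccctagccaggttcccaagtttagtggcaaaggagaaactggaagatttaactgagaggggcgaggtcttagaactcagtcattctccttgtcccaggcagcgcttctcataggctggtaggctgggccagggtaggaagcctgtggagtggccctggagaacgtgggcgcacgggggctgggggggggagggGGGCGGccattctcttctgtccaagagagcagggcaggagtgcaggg
Itgb1, chr8:128685404-128685703, plus strand: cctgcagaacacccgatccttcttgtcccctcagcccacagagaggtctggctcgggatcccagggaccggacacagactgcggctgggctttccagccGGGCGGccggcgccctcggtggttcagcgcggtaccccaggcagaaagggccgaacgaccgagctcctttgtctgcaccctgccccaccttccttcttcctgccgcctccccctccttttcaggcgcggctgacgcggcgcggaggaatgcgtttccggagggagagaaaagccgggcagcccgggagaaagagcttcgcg

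The Mcam window held 5 GC boxes and 72.7% G and C, whereas the Uchl1 window held 0 GC boxes and 50.7% G and C. Cd44 and Itgb1 had 1 GC box each, with 58.0% and 67.3% G and C. Of all 32851 windows 35.7% held a GC box, and the median share of G and C was 52.7%. The letters CACCTG or CAGGTG, to which repressors of the SNAIL and ZEB families bind, were found once in the Mcam window and not in the other windows shown, and in 20.2% of all windows. CCAAT or ATTGG, found in 37.4% of all windows, and TATAAA or TTTATA, found in 13.6%, were in none of the 4. Cd44 and Itgb1 were alike in these counts, and Mcam and Uchl1 differed in GC boxes and in CACCTG. Such matches are descriptions and not binding sites.

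Uchl1, whose product is abundant in spermatogonia and neurons, was read by 1 probe. It had 13.51 and 12.99 log2 units in HFGSC samples and 13.22 and 13.83 in GSC samples, against 6.42 and 6.96 on the HF arrays. The HFGSC and GSC values interleaved, and both groups stood far above HF, where the probe was only just detected, with a detection p of 0.047 and 0.0203. The log2 difference from HF was 6.56 (SE 0.41) in HFGSC, 94.3-fold (limma adjusted p = 0.000138), and 6.83 (SE 0.41) in GSC, 114-fold (adjusted p = 0.000114). HFGSC and GSC differed by -0.27, with a 95% interval of -1.23 to 0.68. Without background correction the differences from HF were 5.62 in HFGSC and 5.89 in GSC.

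Mcam, an immunoglobulin-type adhesion molecule also known as a marker of endothelial cells and pericytes, was read by 3 detected probes. The brightest had 13.52 and 13.92 in HFGSC samples and 13.71 and 14.07 in GSC samples, against 6.92 and 8.64 on the HF arrays. Every HFGSC and GSC value lay above both HF values, and HF replicate 2 was clearly brighter than HF replicate 1. The log2 difference was 5.94 (SE 0.55) in HFGSC, 61.5-fold (limma adjusted p = 0.00048), and 6.11 (SE 0.55) in GSC, 69.1-fold (adjusted p = 0.000416). The other probes gave smaller differences, 4.81 and 4.98 for HFGSC minus HF, with 4.92 and 5.02 for GSC minus HF, each past the threshold when every detected probe was fitted on its own. Without HF replicate 1 the differences were 5.08 in HFGSC and 5.25 in GSC, and without HF replicate 2 they were 6.80 and 6.97. HFGSC and GSC differed by -0.17, with a 95% interval of -1.44 to 1.11. Without background correction the differences from HF were 5.38 in HFGSC and 5.55 in GSC.

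Endothelial genes were set beside Mcam. Of 7 on the array 3 were detected on both arrays of HFGSC, 4 of GSC and 2 of HF, and Emcn, a sialomucin of endothelium, was not detected on any array. The summed linear intensity of the 7 was 493 and 546 in HFGSC samples and 463 and 621 in GSC, against 4338 and 4527 in HF, where most of the sum was Eng, a receptor of endothelial and mesenchymal cells, at 11.97 and 12.01 log2 units. Pecam1, a defining endothelial adhesion molecule, read 6.16 and 5.68 in HFGSC samples and 6.53 and 6.75 in GSC samples, against 5.13 and 5.23 on the HF arrays, where it was not detected. It rose in GSC, at least 1.14-fold (limma adjusted p = 0.009), and did not pass in HFGSC. The part of endothelial RNA in the Mcam result was not tested.

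Thy1, a small surface glycoprotein used to enrich mouse spermatogonial stem cells and also typical of fibroblasts, had 11.94 and 13.52 in HFGSC samples and 11.47 and 11.99 in GSC samples. On the HF arrays it read 5.00 and 5.27 and was not detected. HFGSC replicate 1 lay within the range of the GSC arrays, and HFGSC replicate 2 was the brightest of all 6. Against the lowest detected signal of the HF arrays, Thy1 was at least 78.0-fold higher in HFGSC (limma adjusted p = 0.000298), and by the same bound 38.9-fold higher in GSC (adjusted p = 0.000436). The fitted log2 differences were 7.60 (SE 0.60) in HFGSC and 6.59 (SE 0.60) in GSC. A second Thy1 probe was not detected on any array. HFGSC and GSC differed by 1.00, with a 95% interval of -0.40 to 2.41.

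The difference of Thy1 in HFGSC moved with 1 array. It was 8.39 without HFGSC replicate 1 and 6.81 without HFGSC replicate 2 (adjusted p = 0.0011), and the difference from GSC was 1.80 without HFGSC replicate 1 and 0.21 without HFGSC replicate 2. Without background correction it was 5.97 in HFGSC and 4.99 in GSC. Fibroblast genes were set beside it. Their detected number was 9 of 11 in HFGSC and 8 in GSC, against 6 in HF, where the lowest detected signal was higher. Their summed linear intensity ran opposite to Thy1 between GSC, at 24064 and 21090, and HF, at 46817 and 51276. Dcn, a matrix proteoglycan, had 13.71 and 14.02 in HFGSC samples and 13.56 and 12.75 in GSC samples, against 5.22 and 4.93 on the HF arrays. Vim, an intermediate filament gene, ran the other way, at 10.29 and 12.54 in HFGSC samples and 10.35 and 10.86 in GSC samples, against 14.36 and 14.39 in HF. Col1a1, Sparc and Pdgfrb were likewise brighter on both HF arrays than on both GSC arrays. Col1a2, Pdgfra and Fn1 were dimmer in HF, as Dcn was, and Col3a1 overlapped. Lum and Postn, a matrix proteoglycan and a secreted matrix protein, were not detected on any array. The part of fibroblast RNA in the Thy1 result was not tested.

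**Figure D2:**
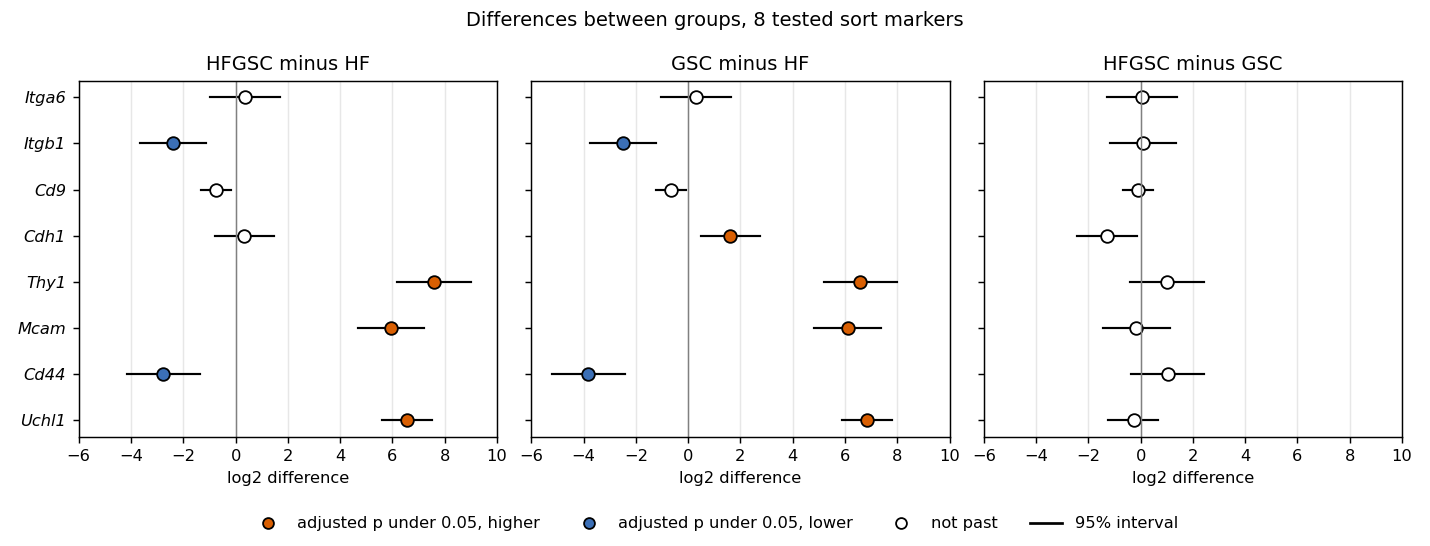
Log2 differences between group means for the 8 tested markers with unadjusted 95% intervals (lines), for HFGSC minus HF, GSC minus HF and HFGSC minus GSC. Orange points are higher and blue points lower at an adjusted p under 0.05, and all 8 points of HFGSC minus GSC are open.

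Cd44, the hyaluronan receptor, had 9.18 and 10.97 in HFGSC samples and 8.81 and 9.26 in GSC samples, against 12.77 and 12.94 on the HF arrays. It was detected on all 6 arrays, brightest in HF, and HFGSC replicate 2 lay between the other HFGSC and GSC arrays and the HF arrays. The log2 difference was -2.78 (SE 0.60) in HFGSC (limma adjusted p = 0.0136) and -3.82 (SE 0.60) in GSC (adjusted p = 0.00335), 6.86-fold and 14.1-fold lower. A second probe gave -2.40 in HFGSC and -4.03 in GSC. The remaining 7 of its 9 probes were not detected on both arrays of any group, and 6 of them were detected on no array. HFGSC and GSC differed by 1.04, with a 95% interval of -0.36 to 2.44. That gap was 1.93 without HFGSC replicate 1 and 0.15 without HFGSC replicate 2.

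The Cd44 difference in HFGSC depended on single arrays. It was -1.89 without HFGSC replicate 1 and -3.67 without HFGSC replicate 2 (adjusted p = 0.00297), and it no longer passed without HF replicate 1 (-2.86, adjusted p = 0.0605) or HF replicate 2 (-2.69, adjusted p = 0.0693). Over the 6 fits that each left out 1 array its adjusted p ran from 0.00297 to 0.0693. The call in GSC held in all 6 such fits. Fibroblast genes were again brighter on HFGSC replicate 2, by 0.31 to 2.41 log2 units over 9 genes, with a median of 1.71. Vim stood 2.25 and Sparc, a matrix glycoprotein, 2.10 log2 units above HFGSC replicate 1, whereas Dcn stood 0.31 and Pdgfra 0.40 above it. The gap of Cd44 was 1.78. The part of fibroblast RNA in this result was not tested.

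**Figure D3:**
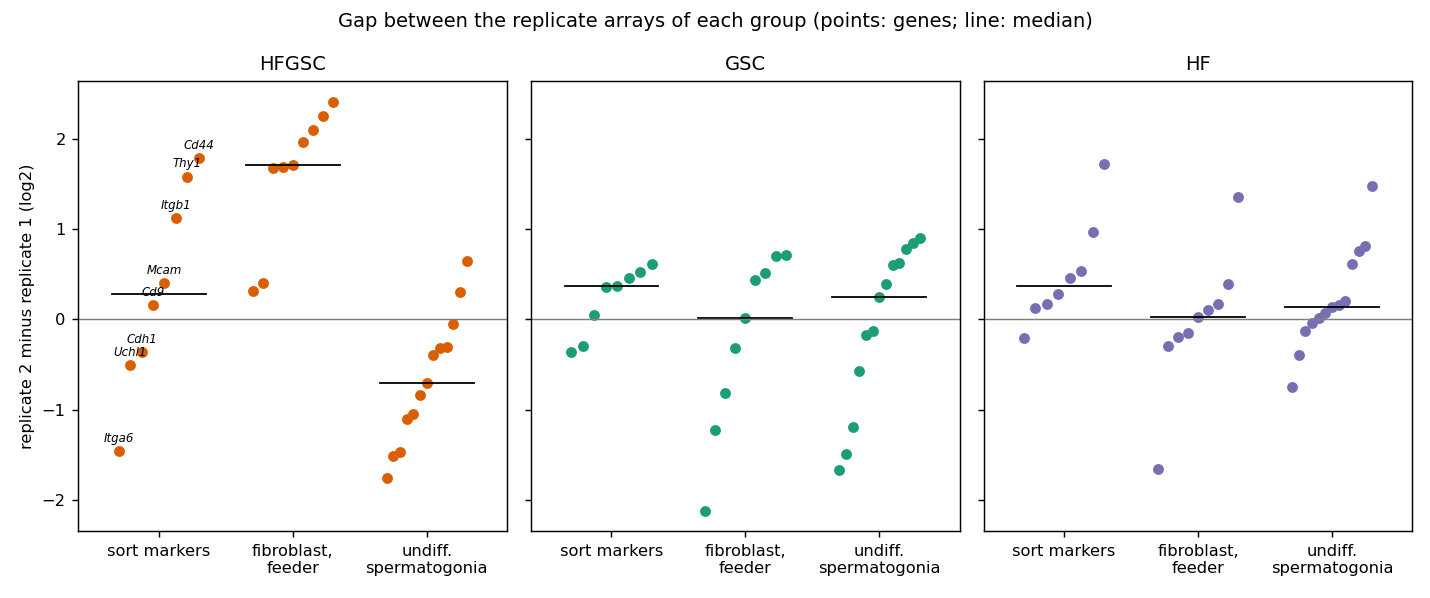
Replicate 2 minus replicate 1 in log2 units for the 8 tested sort markers, 9 detected fibroblast genes and 13 genes of undifferentiated spermatogonia, in HFGSC, GSC and HF, with a point for each gene and a line for the median. In HFGSC the fibroblast genes lie above 0, as do Cd44, Thy1, Itgb1, Mcam and Cd9 by their brightest probes. Below 0 lie 11 of the 13 spermatogonial genes with Itga6, Uchl1 and Cdh1. The second Itgb1 probe, not drawn, was lower on HFGSC replicate 2 than on HFGSC replicate 1.

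Of the 10 genes listed as partners of CD44, which make, cut or anchor it or its ligand, 5 were tested. Msn, an anchor of CD44 to the actin cortex, fell in both HFGSC (log2 difference -3.17, SE 0.49) and GSC (-2.73), and Hyal2, a hyaluronidase, rose by 1.16 in HFGSC and 1.15 in GSC. Has2, a hyaluronan synthase, rose in HFGSC, where it was at least 1.67-fold higher. In all, 2 rose and 1 fell in HFGSC, or 3 and 1 with the replicate number as a block, and 1 rose and 1 fell in GSC, or 2 and 2 with the block. The medians were 1.16 and 0.79. Beside these, 17.2% of all tested genes were called higher and 9.37% lower in HFGSC, with 19.5% and 12.6% in GSC. With the block 2876 of all 10913 genes were called higher and 2246 lower in HFGSC, with 3173 and 2496 in GSC. Those numbers over all genes also stand beside the block counts of each related list below. Mmp14, a membrane protease that cleaves CD44, read 12.80 and 14.36 in HFGSC samples and 12.33 and 12.88 in GSC samples, against 13.85 and 13.68 in HF, and did not pass in either comparison.

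Itgb1, the beta 1 subunit shared by many integrins, had 6.37 and 7.49 in HFGSC samples and 7.01 and 6.65 in GSC samples, against 9.42 and 9.21 on the HF arrays. Both HF values lay above all others, and the HFGSC and GSC values overlapped. The log2 difference was -2.39 (SE 0.54) in HFGSC (limma adjusted p = 0.0164) and -2.48 (SE 0.54) in GSC (adjusted p = 0.0122), 5.23-fold and 5.60-fold lower. The second probe fell by 2.88 in HFGSC and fell by 2.28 in GSC. Its HFGSC values were 6.43 and 5.92, dimmer on replicate 2, where it was not detected, whereas the first probe was brighter there. HFGSC and GSC differed by 0.10, with a 95% interval of -1.17 to 1.36, and by -0.46 without HFGSC replicate 2.

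The Itgb1 calls were close to the threshold. In HFGSC the gene no longer passed without HFGSC replicate 1 (-1.83, adjusted p = 0.0812), HF replicate 1 (-2.28, adjusted p = 0.087) or HF replicate 2 (-2.49, adjusted p = 0.0637). Without HFGSC replicate 2 it was -2.95 (adjusted p = 0.0112). Over all 6 such fits the adjusted p lay between 0.0112 and 0.087. In GSC it no longer passed without GSC replicate 2 (-2.30, adjusted p = 0.074) or HF replicate 1 (-2.38, adjusted p = 0.067), over a range of 0.00701 to 0.074. Without background correction the differences were -1.73 in HFGSC and -1.80 in GSC, and both passed.

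Itga6, the alpha 6 subunit of laminin receptors and a classical marker for enriching mouse spermatogonial stem cells, showed no difference that passed. Its brightest probe had 8.08 and 6.62 in HFGSC samples and 7.44 and 7.15 in GSC samples, against 6.77 and 7.22 on the HF arrays, and all 3 groups overlapped. The log2 difference was 0.35 in HFGSC, with a 95% interval of -0.98 to 1.68, and 0.30 in GSC, with -1.03 to 1.63. The HFGSC value was -0.38 without HFGSC replicate 1 and 1.08 without HFGSC replicate 2, so its sign rested on 1 array. HFGSC minus GSC was 0.05, and was -0.68 without HFGSC replicate 1 and 0.78 without HFGSC replicate 2. The intervals leave room for a change of about the size of the replicate gap in HFGSC, 1.46 log2 units. Its probes disagreed. A second detected probe read 8.09 and 5.74 in HFGSC samples and 7.02 and 6.56 in GSC samples, against 6.48 and 5.91 in HF. The third was brighter on replicate 1 than on replicate 2 in every group, at 7.61 and 5.86 in HFGSC, 7.75 and 5.60 in GSC, and 8.10 and 6.43 in HF. Its group means differed from HF by -0.53 in HFGSC and -0.59 in GSC, opposite in sign to the other probes, and it was detected on both arrays of no group. Among the Itga6 probes it alone was annotated to a RefSeq transcript, so the test rested on a probe annotated to another record.

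Itga1, the alpha 1 subunit that pairs with beta 1 as a collagen receptor, had 2 probes and was not tested. One probe was detected on no array. The other read 6.05 and 5.41 in HFGSC samples and 6.71 and 5.49 in GSC samples, against 5.73 and 5.07 in HF, and was detected on HFGSC replicate 1 and GSC replicate 1 alone. With no filter on detection its log2 difference was 0.33 (SE 0.44, limma adjusted p = 0.691) in HFGSC and 0.70 (SE 0.44, adjusted p = 0.342) in GSC.

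**Figure D4:**
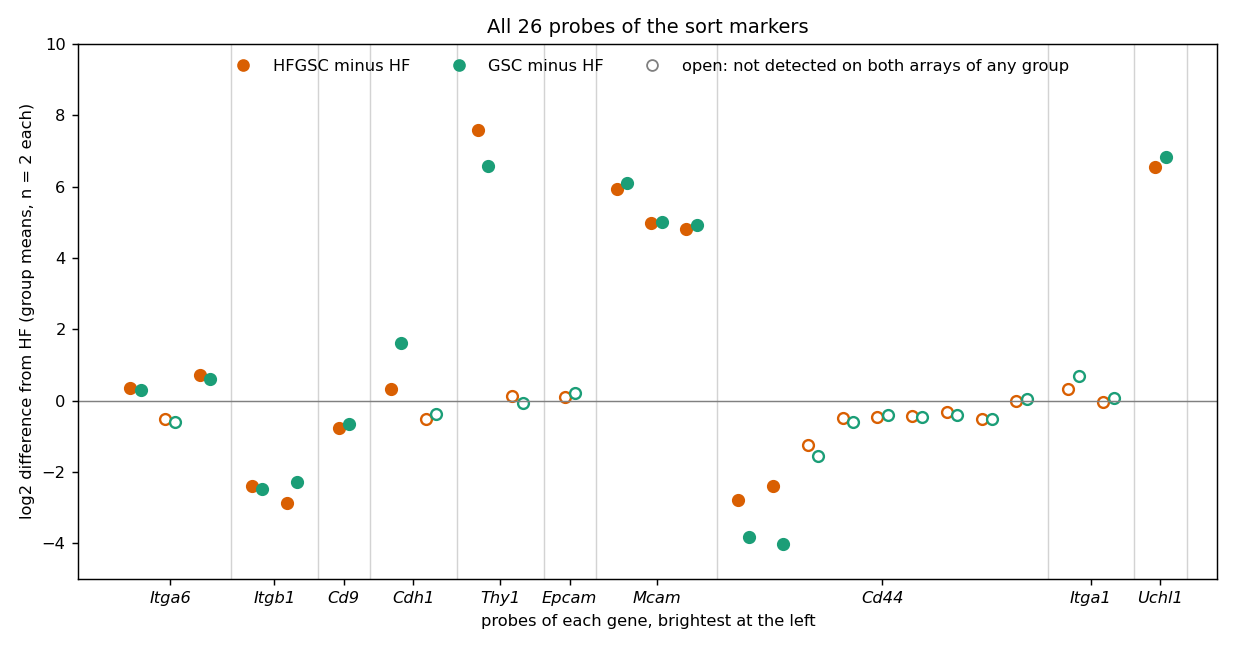
Log2 difference from HF of the group means (n = 2 each) for all 26 probes, HFGSC in orange and GSC in green, grouped by gene with the brightest probe at the left and open symbols for probes not detected on both arrays of any group. The 3 Mcam probes and the 2 Itgb1 probes lie together, those of Itga6 lie on both sides of 0, and 7 of the 9 Cd44 probes are open.

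Among the 14 other integrin subunits that were tested, 4 rose and 3 fell in HFGSC, and 2 rose and 3 fell in GSC. With the replicate number as a block 6 rose and 3 fell in HFGSC, and 5 rose and 4 fell in GSC. Their median log2 difference was 0.09 in HFGSC and -0.13 in GSC. Beside these, 17.2% of all tested genes were called higher and 9.37% lower in HFGSC, with 19.5% and 12.6% in GSC. The subunits that rose without the block, Itgae, Itgb4, Itga11 and Itga9, were not detected in HF. They entered the test through HFGSC or GSC, and a call of lower was hardly open to them. Itgb4, the other beta partner of alpha 6 and a part of hemidesmosomes, had 9.49 and 9.91 in HFGSC samples and 8.74 and 9.61 in GSC samples, and was not detected in HF. It was at least 9.53-fold higher in HFGSC (limma adjusted p = 0.00269) and 6.62-fold higher in GSC, also as a bound (adjusted p = 0.00454). Itgb4 therefore ran opposite to Itgb1. Itga3, which pairs with beta 1 as a laminin receptor, fell by 2.86 in HFGSC and fell by 2.78 in GSC.

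The subunits that form the receptor for E-cadherin on lymphocytes of epithelia moved apart as well. Itgae, its alpha chain, was at least 11-fold higher in HFGSC and at least 17.2-fold higher in GSC. Itgb7, its beta chain, had 6.01 and 7.27 in HFGSC samples and 5.73 and 7.37 in GSC samples, against 11.66 and 12.23 in HF. Its log2 difference was -5.31 in HFGSC and -5.39 in GSC. Of 8 leukocyte genes on the array 1 was detected on both arrays of HFGSC, 2 of GSC and 1 of HF, and Ptprc, the pan-leukocyte gene, was not detected on any. Their summed linear intensity was 1246 and 1204 in HFGSC samples and 2575 and 3420 in GSC, against 352 and 356 in HF, and their part in these values was not tested.

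Of 7 tested genes for adaptors of integrins at the membrane, none rose in either comparison. Ilk, a scaffold at focal adhesions, fell in HFGSC (log2 difference -1.08, adjusted p = 0.0282) and in GSC (-1.51, adjusted p = 0.0069), and Parva, its binding partner, fell in GSC (-1.74). Fermt2 and Vcl, which also act at focal adhesions, had differences of -1.64 and -1.23 against HF in HFGSC, with -1.65 and -1.38 in GSC, and did not pass. The median over the 7 was -1.08 in HFGSC and -1.38 in GSC. Without the block 9.37% of all tested genes were called lower in HFGSC and 12.6% in GSC. With the replicate block 3 of the 7 fell in HFGSC and 5 in GSC, beside 2246 and 2496 of all 10913 genes.

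Cd9, a tetraspanin on spermatogonial stem cells of mouse and rat and on many epithelia, was bright on every array. It had 12.63 and 12.79 in HFGSC samples and 12.62 and 12.99 in GSC samples, against 13.40 and 13.53 on the HF arrays. Both HF values lay above all others, by less than 1 log2 unit. The log2 difference was -0.76 (SE 0.25, limma adjusted p = 0.0589) in HFGSC and -0.66 (SE 0.25, adjusted p = 0.0802) in GSC, and neither passed. With the replicate number as a block both passed, at an adjusted p of 0.0117 in HFGSC and 0.0185 in GSC. Over the other alternatives that kept all arrays of the groups compared, the adjusted p reached 0.148 in HFGSC and 0.184 in GSC.

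Relatives of Cd9 were called in both directions. Of 16 other tetraspanins and CD9 partners tested, 3 rose and 3 fell in HFGSC, or 4 and 6 with the replicate block, and 4 rose and 3 fell in GSC, or 4 and 8 with the block. The medians were -0.52 and -0.47. Beside these, 17.2% of all tested genes were called higher and 9.37% lower in HFGSC, with 19.5% and 12.6% in GSC. Among those that rose, Tspan33, Tspan8 and Tspan18 were not detected in HF and entered the test through HFGSC or GSC. Tspan33 had 11.26 and 11.07 in HFGSC samples and 10.59 and 11.39 in GSC samples, against 5.33 and 5.45 on the HF arrays, at least 26.3-fold and 23.3-fold higher. Tspan8, used to sort mouse spermatogonia, was at least 10.4-fold higher in HFGSC and at least 3.85-fold higher in GSC. Tspan6 rose by 2.63 and 2.44, while Tspan4 fell by 2.38 in HFGSC and fell by 2.90 in GSC.

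Cdh1, which encodes E-cadherin and marks undifferentiated spermatogonia of the mouse, was the only 1 of the 8 with a call in 1 comparison with HF and not in the other. It had 7.13 and 6.77 in HFGSC samples and 8.21 and 8.26 in GSC samples, against 6.13 and 7.10 on the HF arrays. The GSC arrays lay above all others, and HFGSC and HF overlapped. In GSC the log2 difference was 1.62 (SE 0.49, limma adjusted p = 0.0397), 3.07-fold. In HFGSC it was 0.33, with a 95% interval of -0.80 to 1.47, and -0.15 without HF replicate 1. The test of the difference itself, HFGSC against GSC, gave -1.28 (SE 0.49) with an unadjusted p of 0.0317 and an adjusted p of 0.58, so the 2 were not shown to differ after adjustment.

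The Cdh1 call in GSC was fragile. It ended without GSC replicate 1 (1.64, adjusted p = 0.112), GSC replicate 2 (1.59, adjusted p = 0.118), HF replicate 1 (1.13, adjusted p = 0.304) or HF replicate 2 (2.10, adjusted p = 0.0592), and with no filter on detection (adjusted p = 0.101). Over the 11 alternatives other than leaving out an array its adjusted p lay between 0.0109 and 0.101, and without background correction the difference was 1.01. The second Cdh1 probe was not detected on any array.

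Among the other cadherins, Cdh3 and Cdh4 had larger differences than Cdh1 in both comparisons with HF. Cdh2, at -1.10 in HFGSC and -0.92 in GSC, and Cdh5, at -0.33 in HFGSC and 0.13 in GSC, did not pass. Cdh3, the P-cadherin gene, had 10.06 and 9.70 in HFGSC samples and 9.70 and 10.68 in GSC samples and was not detected in HF. It was at least 10.8-fold higher in HFGSC (limma adjusted p = 0.00136) and 13.4-fold higher in GSC, also as a bound (adjusted p = 0.000906). Cdh4, the R-cadherin gene, was at least 5.52-fold and 7.72-fold higher. Of 9 cadherins and catenins tested 2 rose and 1 fell in each comparison, or 2 and 4 with the replicate block, with medians of -0.36 in HFGSC and -0.09 in GSC. Those that rose, Cdh3 and Cdh4, were not detected in HF and entered the test through HFGSC or GSC. Beside these, 17.2% of all tested genes were called higher and 9.37% lower in HFGSC, with 19.5% and 12.6% in GSC. Ctnna1, which links cadherins to actin, fell by 1.37 in HFGSC and had a difference of -0.92 in GSC that did not pass. Cdh13, a cadherin held in the membrane by a lipid anchor, fell by 2.10 in GSC and had a difference of -1.45 in HFGSC that did not pass.

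Epcam, an epithelial adhesion molecule found on spermatogonia and used to sort them, was not detected on any of the 6 arrays by its single probe. It read 5.26 and 5.13 in HFGSC samples and 5.48 and 5.11 in GSC samples, against 5.00 and 5.20 in HF, and the groups overlapped. With no filter the log2 difference was 0.10 (SE 0.15, limma adjusted p = 0.73) in HFGSC and 0.20 (SE 0.15, adjusted p = 0.438) in GSC. A single probe at background shows no more than that this probe had no signal, and it does not show that the gene was silent.

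Of 10 genes listed as working with EpCAM, 9 were on the array and 8 passed the detection filter. Of these 8, 5 rose and none fell in HFGSC, and 7 rose and none fell in GSC, with medians of 1.83 and 2.31. Over all tested genes 17.2% were called higher in HFGSC and 19.5% in GSC, with medians of 0.05 and 0.07. Cldn1, Cldn3, Cldn6, Spint2 and St14 were not detected in HF and entered the test through HFGSC or GSC. A call of lower was hardly open to them. Spint1, an inhibitor of membrane serine proteases, had 13.54 and 13.30 in HFGSC samples and 14.05 and 14.37 in GSC samples, against 9.10 and 10.75 on the HF arrays. Its log2 difference was 3.50 in HFGSC (limma adjusted p = 0.00267) and 4.29 in GSC (adjusted p = 0.00101). Spint2, its relative, was at least 2.36-fold and 2.64-fold higher, and St14, the protease matriptase, at least 1.14-fold and 4.99-fold higher. Cldn6, a tight junction protein, was at least 3.92-fold higher in HFGSC and at least 1.01-fold higher in GSC. Cldn7, the claudin that binds EpCAM, did not pass, at -0.77 in HFGSC and -0.60 in GSC.

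**Figure D5:**
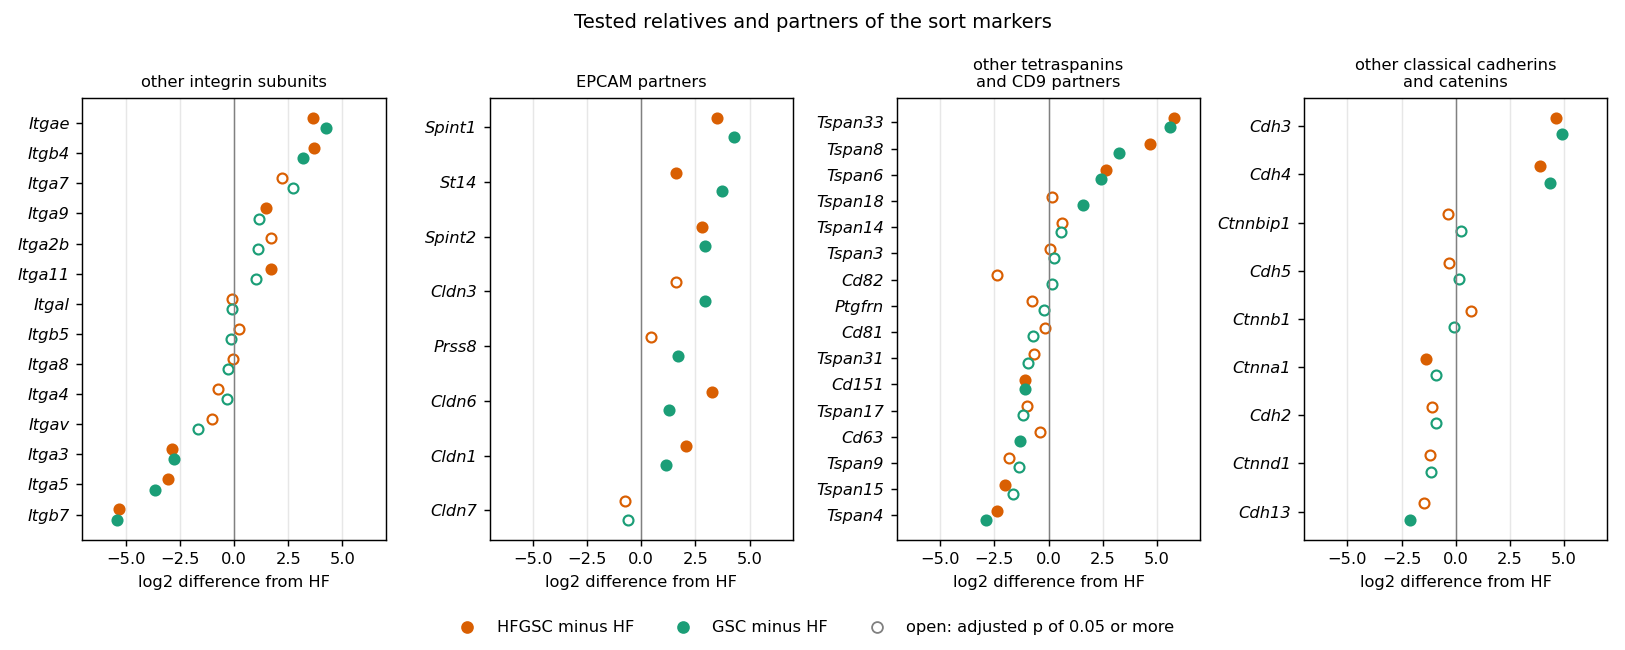
Log2 difference from HF of the tested members of 4 related lists, HFGSC in orange and GSC in green, with filled points past an adjusted p of 0.05. Itgae and Itgb4 stand at the high end and Itgb7 at the low end of the integrins, and 7 of the 8 EPCAM partners have a filled GSC point.

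The remaining lists held other molecules of spermatogonial sorts and relatives of Uchl1. Of 10 tested genes used to enrich undifferentiated spermatogonia 3 rose and 2 fell in each comparison, or 3 and 4 with the replicate block, with medians of -0.67 in HFGSC and 0.09 in GSC. Beside these, 17.2% of all tested genes were called higher and 9.37% lower in HFGSC, with 19.5% and 12.6% in GSC. Those that rose, Ret, Tspan8 and Gfra1, were not detected in HF and entered the test through HFGSC or GSC. Ret, the receptor chain for GDNF, rose in both, at least 264-fold in HFGSC and 220-fold in GSC, and its coreceptor Gfra1 at least 2.49-fold and 1.61-fold. Plaur, the urokinase receptor, fell by 4.14 in HFGSC and fell by 3.87 in GSC, and Pvr, a nectin-like adhesion molecule, had differences of -3.89 and -4.36 and fell in both. Cd82, a tetraspanin, had 7.33 and 9.87 in HFGSC samples and 10.98 and 11.30 in GSC samples, against 10.85 and 11.06 in HF, and did not pass (adjusted p = 0.059 in HFGSC).

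Of 7 tested genes used to exclude cells from such sorts, 1 rose and 1 fell in HFGSC, or 3 and 1 with the replicate block, and 2 rose and 2 fell in GSC, or 3 and 3 with the block. Their medians were 0.74 and 0.46. Beside these, 17.2% of all tested genes were called higher and 9.37% lower in HFGSC, with 19.5% and 12.6% in GSC. Those that rose without the block, Kit in both comparisons and Pecam1 in GSC, were not detected in HF. They entered the test through HFGSC or GSC. Kit, the receptor that rises as spermatogonia differentiate, was at least 8.19-fold higher in HFGSC and at least 4.50-fold higher in GSC. H2-D1, an MHC class I gene, fell by 2.81 in HFGSC and fell by 2.29 in GSC. B2m, the light chain of class I molecules, fell by 1.33 in GSC and had a difference of -0.46 in HFGSC that did not pass. H2-K1, another class I gene, had 9.32 and 12.93 in HFGSC samples and 8.90 and 10.31 in GSC samples, against 7.37 and 8.03 in HF, and did not pass, with its brightest value on HFGSC replicate 2. Among 3 tested relatives of Uchl1, Bap1, a nuclear deubiquitinase, rose by 1.07 in HFGSC and 1.22 in GSC, and Uchl3 and Uchl5 did not pass. With the block 1 rose and 2 fell in HFGSC, and 1 rose and 1 fell in GSC.

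The genes most like each marker in profile were taken as the 2 with the smallest root mean square distance over the 6 arrays after centring, among 10912 others. For Thy1, whose HF values were at background, they were Prelp, a matrix proteoglycan, at 0.068 log2 units, and Osr2, a transcription factor, at 0.162. For Mcam they were Mbd2 at 0.282 and Pou3f1 at 0.301, and for Uchl1 Prr19 at 0.157 and Zbtb32 at 0.195. Cd44 was closest to Gata2 at 0.128 and Nupr1 at 0.144. Itgb1 was closest to Fez2 at 0.112 and Fam120a at 0.122, and Cd9 to Mpp7 at 0.028 and Epha4 at 0.045. Cdh1 was closest to Slc35d2 at 0.116 and Dnajc27 at 0.203, and Itga6 to Ccdc181 at 0.166 and Cfap53 at 0.171. With 6 arrays in 3 groups, many genes share such a profile, and nearness says nothing of shared function.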

How the data were processed

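Total RNA of 6 mouse samples was, per the labels' protocols, amplified into biotin-marked cRNA, and Illumina bead arrays were read. The deposited intensity values are linear bead summaries per probe, not normalized, and each has a deposited detection p-value, per the file headers. The authors' second deposited table is in log2 and uncentred, has a median of 7.046 in every column and lies within 0.148 of log2 intensities quantile normalized here. With 1 channel it has no direction. The submitters' processing notes list GenomeStudio 2011.1 and R 3.0.2. No genome build applies to the values.

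Groups came from the sample titles. Probe names come from the platform annotation: 34885 of 45281 had 1 symbol, 18 several and 10378 none, and 34807 matched the RefSeq table of GRCm38.p6, which changed 0 symbols. The neqc function of limma 3.58.1, in R 4.3.3, was applied to the intensities (background from detection p-values, offset 16, quantile normalization, log2). Probes with detection p under 0.05 on both arrays of a group were kept, the brightest per gene, leaving 10913 genes. Linear models over all 6 arrays, with 3 residual degrees of freedom, were moderated with a mean-variance trend and adjusted by Benjamini-Hochberg at 0.05. Where neither array of the dimmer group detected a probe, its fold is a lower bound against the lowest detected signal, or its own where that is higher. The 95% intervals are not adjusted. The test was checked on simulated data.

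The members, 9 related lists and 12 marker lists were chosen with earlier results of these data known, and some genes stand in more than 1 list. All 10 members are named, and from each related list up to 4 tested genes with the smallest adjusted p. Gfra1, Cd82, H2-K1, Cldn7, Cdh2 and Cdh5, and single marker genes, were named after their values were seen. Nothing in the labels links a replicate number to an animal or a batch. Across genes, the gaps between replicate 2 and replicate 1 had a correlation of 0.436 (HFGSC and HF), 0.757 (GSC and HF) and 0.58 (HFGSC and GSC), so from the data alone the numbers were treated as a possible pairing. Blocked values are given where they change the call of a tested marker or, against HF, move a list's count by more than 1.5 times. Calls of single genes from the related lists are without the block, which changes some of them. Pairing remains an assumption.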

Additional observations from a re-analysis of the deposited data

Results flagged for a closer look

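One probe of Itga1 that was in no test was detected on HFGSC replicate 1 at 6.05 log2 units and on GSC replicate 1 at 6.71, and on neither HF array, where it read 5.73 and 5.07. On HFGSC replicate 2 and GSC replicate 2 it was not detected, at 5.41 and 5.49, so no group showed it on both of its arrays. With 2 arrays per group no array can be called an outlier, and no marker passed in HFGSC against GSC.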

How the results depend on the processing

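Of 264 values of the 8 tested markers under the alternatives that kept all arrays, 261 stayed on their side of the threshold, 1 fell short (Cdh1 in GSC) and 2 passed in addition (Cd9 in both comparisons with HF). None of the called values changed sign, but among those not called Itgb1 in HFGSC against GSC turned to -0.26 with the mean over its probes. Of 144 values with 1 array left out, 11 fell short and 0 of those called changed sign. With the replicate number as a block, a pairing that the labels do not state, 5122 genes were called in HFGSC against HF, 5669 in GSC against HF and 174 in HFGSC against GSC, beside 2896, 3501 and 48 without it, and no marker call other than those of Cd9 changed. HFGSC against GSC gave 13 genes without the mean-variance trend and 5 in a fit of only its 4 arrays. The cause was not tested. With 1 array left out, where the lone array is assumed to vary like the other groups, the counts ran from 1371 to 2860 in HFGSC against HF, from 1699 to 3876 in GSC against HF and from 0 to 54 in HFGSC against GSC. The markers called ran from 3 to 5 in HFGSC against HF, with 3 without HF replicate 1 or HF replicate 2, and from 4 to 6 in GSC against HF. Median scaling moved the median of all genes in GSC against HF to 0.16. Probes near background limit Itga6, Cdh1, Epcam and Itga1. They also limit the size of the differences of Itgb1, low in HFGSC and GSC, and of Thy1 and Uchl1, low in HF. For Mcam this concerns HF replicate 1, where its brightest probe read 6.92.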
